A study of Mus musculus with 15 samples.

Results

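Described here are 9 of the 55359 genes in the files, which were nearly silent in 1 mouse cell line and expressed in another. They are Zfp462, Tle3, Pja1, Pdlim1, Agap1, Man1a, Cln8, Fgl2 and Spon1. They were chosen by name from earlier results of these data, because they had almost no reads in the wild-type line and many in the heterozygous line carrying the same empty vector. The difference between those lines is therefore given as a description, with no test. RNA was sequenced from mouse fetal liver hematopoietic progenitors immortalized with Hoxb8 and grown with estradiol, in 15 libraries forming 5 groups of 3. All cells were infected with a retrovirus for 2 days and sorted for GFP. WT empty is the Ddx41+/+ line with an empty vector. Het empty, Het DDX41, Het G173R and Het R525H are the Ddx41+/- line with an empty vector or a vector for wild-type, G173R or R525H DDX41, a DEAD-box RNA helicase. Each genotype is represented by 1 line, so the effect of its genotype and of any other difference between the lines cannot be told apart. Nothing states that the 3 libraries of a group come from separate cultures, and p-values then measure only the spread between these libraries, which may be technical. Groups follow the sample titles. The files of Het G173R and Het R525H are named with the codes that the titles use for the empty and the wild-type DDX41 vector, and those of Het empty and Het DDX41 with the letters A and B. The division into lines is the same by either, but every comparison between vectors rests on the titles.

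A gene that is off in one cell line and on in a related one can differ through its DNA sequence, its promoter or the factors that read it. The 9 genes belong to different pathways. Zfp462 and Tle3 act in the nucleus, the first as a zinc finger protein of heterochromatin and the second as a Groucho-family corepressor with no DNA binding of its own. Pja1 is a RING-type ubiquitin ligase. Pdlim1 is a PDZ and LIM domain adaptor that binds alpha-actinin, and Agap1 is a GTPase-activating protein for Arf proteins that works with the AP-3 coat. Man1a trims mannose from N-linked glycans in the Golgi, and Cln8 helps lysosomal enzymes leave the endoplasmic reticulum. Fgl2 and Spon1 encode secreted proteins, a fibrinogen-like protein and F-spondin of the extracellular matrix.

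The libraries held 22104066 to 49145873 expected counts. Ddx41 ranged from 55.6 to 63.4 CPM (counts scaled to a common library size) in WT empty and from 27.8 to 36.9 CPM over the 12 heterozygous libraries. The log2 difference of Het empty from WT empty was -0.97 (SE 0.11, edgeR adjusted p = 0.000138). The 6 progenitor markers, Kit and Cd34 among them, summed to 3380 to 4090 CPM in WT empty and 3010 to 4740 CPM in the heterozygous libraries, most of it Cd34 and Mpo. Single markers differed between the lines: Flt3 was 340 to 389 CPM in WT empty and 175 to 264 CPM in the heterozygous libraries, and Ptprc 172 to 185 and 275 to 339 CPM. Of markers of other cells, the 4 stromal and 3 endothelial genes stayed under 1 CPM in every library, with Col1a1, Col3a1 and Cdh5 at 0. Of the 4 hepatocyte markers Alb and Ttr were at 0 throughout, Apoa1 had at most 2 counts in a library, and Afp was 0.0277 to 0.286 CPM in WT empty and 0.146 to 1.25 CPM in the heterozygous libraries. The list summed to 0.0277 to 0.286 and 0.146 to 1.3 CPM. The 3 T cell and 4 erythroid markers summed to at most 0.681 and 3.5 CPM. The 4 megakaryocyte markers summed to 19.9 to 25.3 CPM in WT empty and 4.33 to 17.9 CPM in the heterozygous libraries, and the 4 macrophage markers to 210 to 348 and 122 to 205 CPM, nearly all of it Adgre1. The part of these cells in the results was not tested. In such bulk samples fewer cells of a type and less RNA per cell cannot be told apart.

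Promoter sequences were found for 5 of the 9 genes in RefSeq on GRCm38.p6 and are shown for 4 of them. Whether the 9 genes share a promoter type was not tested. Each run reads 5′ to 3′ on the strand of the gene and covers the 250 bases before its start, or for Tle3 the first 210 of them, which lie outside its annotated span, and CG dinucleotides are in capitals. Tle3 is shown from chr9:61372116-61372325 on the plus strand, Pdlim1 from chr19:40271617-40271866 on the minus strand, Agap1 from chr1:89454561-89454810 on the plus strand and Fgl2 from chr5:21372423-21372672 on the plus strand.
Tle3: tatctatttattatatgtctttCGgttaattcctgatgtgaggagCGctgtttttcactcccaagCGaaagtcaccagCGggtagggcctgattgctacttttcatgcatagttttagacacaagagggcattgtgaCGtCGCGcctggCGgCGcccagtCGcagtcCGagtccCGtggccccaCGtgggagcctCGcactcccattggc
Pdlim1: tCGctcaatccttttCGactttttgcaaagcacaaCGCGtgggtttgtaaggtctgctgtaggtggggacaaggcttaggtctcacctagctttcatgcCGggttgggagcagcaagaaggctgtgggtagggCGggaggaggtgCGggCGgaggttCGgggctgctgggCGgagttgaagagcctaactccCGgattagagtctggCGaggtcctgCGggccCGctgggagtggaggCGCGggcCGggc
Agap1: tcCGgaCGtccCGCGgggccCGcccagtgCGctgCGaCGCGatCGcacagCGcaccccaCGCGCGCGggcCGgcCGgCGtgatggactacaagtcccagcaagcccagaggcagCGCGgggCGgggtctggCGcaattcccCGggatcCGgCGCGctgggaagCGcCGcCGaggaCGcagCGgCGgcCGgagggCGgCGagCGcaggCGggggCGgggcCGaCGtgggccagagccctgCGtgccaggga
Fgl2: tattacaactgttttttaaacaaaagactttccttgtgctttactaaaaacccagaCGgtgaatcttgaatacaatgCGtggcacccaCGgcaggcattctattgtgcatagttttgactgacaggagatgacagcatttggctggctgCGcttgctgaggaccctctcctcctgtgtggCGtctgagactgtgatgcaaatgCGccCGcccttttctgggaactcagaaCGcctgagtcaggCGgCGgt

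In the 250 bases before the start, Agap1 held 41 CG dinucleotides, more than 98.9 percent of 32851 RefSeq promoters. Man1a held 31 (more than 94.8 percent), Tle3 and Pdlim1 17 each (76.5 percent), and Fgl2 10 (62.2 percent). Over all promoters the median was 6 and the quartiles were 2 and 16, so Fgl2 lay between the quartiles. The base composition ran from 49.6 percent G and C in Fgl2 to 78.8 percent in Agap1. Among 4 short motifs searched on both strands, the E-box CACGTG occurred in Tle3 alone of the 5 (6.02 percent of all promoters). GGGCGG occurred in Pdlim1, Agap1, Man1a and Fgl2 (32.7 percent of all), CCAAT in Tle3 and Man1a (33.8 percent), and TATAAA in none of the 5 (12.4 percent). No motif was present in all 5.

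In the wild-type line 6 of the 9 genes had no count in any of the 3 libraries. These were Zfp462, Pja1, Pdlim1, Man1a, Fgl2 and Spon1, and 3 counts over the group, the limit that a count of 0 allows, correspond to 0.0272 CPM. This limit and the intervals below cover counting error only. Tle3 had 1 count in each library of WT empty, Cln8 1 count in libraries 1 and 2, and Agap1 5 counts, all of them in library 3. "Silent" therefore holds to the limit for 6 genes and nearly so for the other 3. In the heterozygous line every one of the 12 libraries held at least 151 counts of each gene. WT empty overlapped no heterozygous group for any of the 9. That follows from how the genes were chosen and is no result about them, and the share over all genes was not computed.

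**Figure D1:**
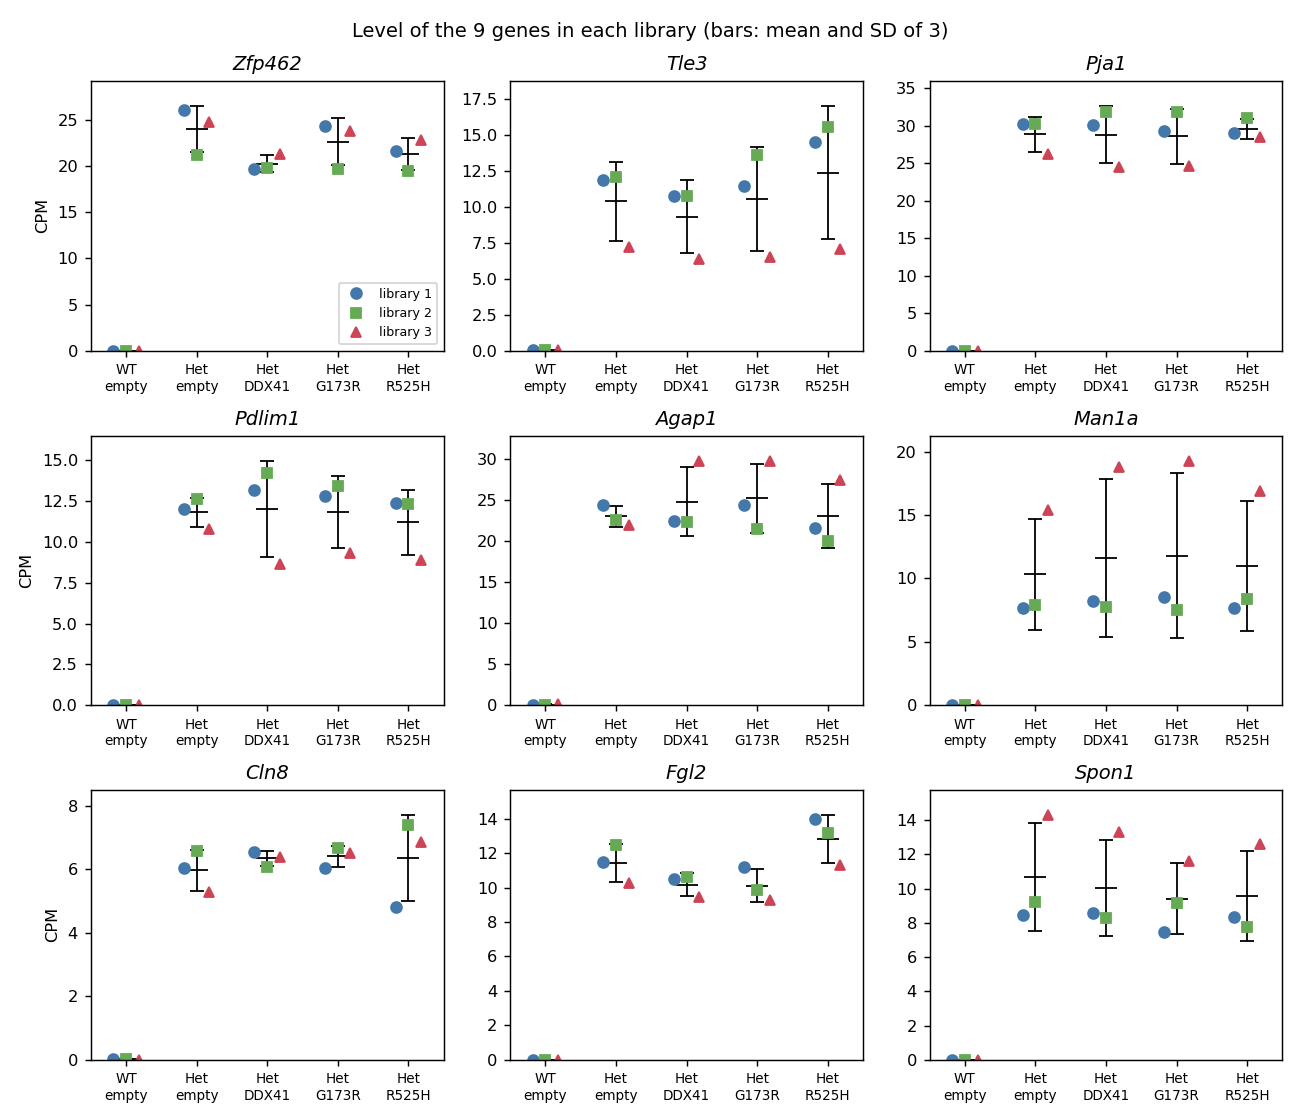
CPM of the 9 genes in each library, by group. Points are libraries 1, 2 and 3, and black bars are the mean and SD of 3. All WT empty libraries lie at or near 0, between 0 and 0.13 CPM. The vector groups of the heterozygous line overlap, except Het R525H with Het DDX41 and Het G173R for Fgl2. In that line the libraries 3 (triangles) do not overlap the others for Man1a, Spon1, Tle3, Pdlim1 and Pja1.

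Relative to the 3-count limit, the pooled level in the 12 heterozygous libraries was at least 1070-fold higher for Pja1, at least 799-fold for Zfp462, at least 436-fold for Pdlim1, at least 409-fold for Fgl2, at least 401-fold for Man1a and at least 359-fold for Spon1. For the genes with counts in WT empty the ratio was 397 for Tle3 (95 percent exact binomial interval 136 to 1920) and 346 for Cln8 (95.6 to 2860), and the interval for Agap1 was 225 to 1620. These values chose the genes and carry no test.

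The same limits were applied to the whole table. Of 9025 genes with at least 5 CPM in all 12 heterozygous libraries, 7 had at most 3 counts over WT empty, and all 7 are among the 9. The count was 11 with a limit of 1 CPM and 2 with 10 CPM. The other two lay just outside these limits, Agap1 with its 5 counts and Cln8 with a lowest level of 4.81 CPM. Some genes outside the 9 came near these limits with more counts in the wild-type line: Adgra3 6, Btbd11 7, Aldh1l2 and Zeb1 14 each, Mthfd2l 15 and Bhlhb9 19. Their lowest heterozygous levels were 3.19, 3.86, 10.1, 7.13, 3.22 and 23.5 CPM. In the other direction 2 genes had at least 5 CPM in all WT empty libraries and at most 12 counts over the 12 heterozygous ones.

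Genes with the same shape at a lower level included Cyp39a1, Galnt14, Adamts3 and Pkp2, with 1, 3, 1 and 0 counts over WT empty. Cyp39a1, which encodes an oxysterol hydroxylase, ranged from 1.15 to 2.4 CPM in the heterozygous libraries, with a Pearson r of 0.965 with the mean log2 profile of the 9 genes over 15 libraries. The r of the others was 0.951, 0.959 and 0.854. These coefficients mostly restate the difference between the lines, since the libraries of each line share it.

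Levels can be compared between genes only per length, as TPM (RSEM's measure of transcripts relative to all transcripts of a library). Over the 12 heterozygous libraries Pja1 had the highest median, 11.3 TPM (9.23 to 13.45), and Pdlim1 the next, 9.69 TPM (5.98 to 12.5), which placed them above 57.9 and 54.9 percent of the 14548 genes tested. Both lay above Agap1 (2.82 TPM) in every library. Fgl2, Tle3 and Zfp462 had medians of 2.64, 2.56 and 2.24 TPM, and Man1a, Cln8 and Spon1 1.56, 1.5 and 1.28 TPM. From Agap1 down, each gene overlapped the next in range, so the order of those 7 was not fixed. The 9 were thus genes of low to middle expression in the line that expressed them.

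**Figure D2:**
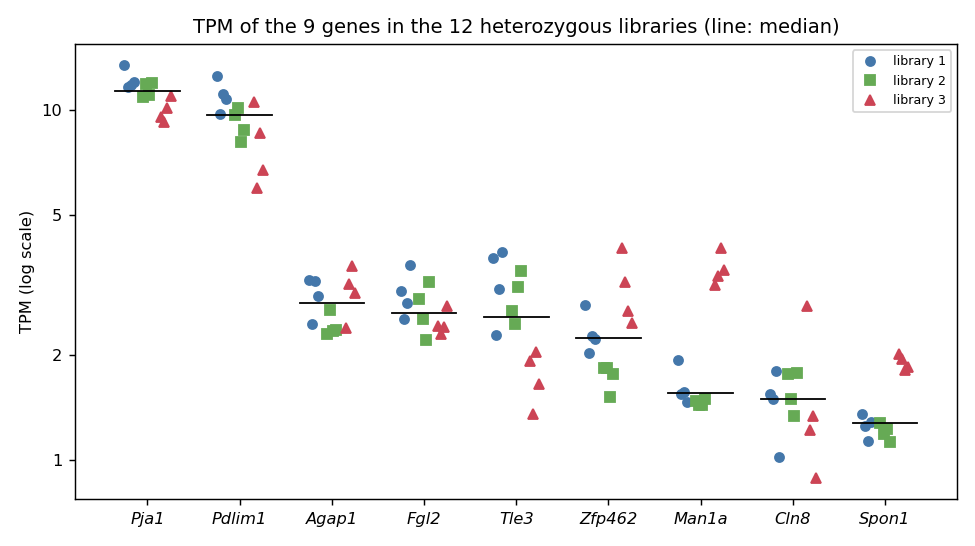
TPM on a log scale for the 9 genes in the 12 heterozygous libraries, in the order of their medians (lines), with the library number as symbol and colour. Pja1 and Pdlim1 stand above the rest, and library 3 (triangles) is high for Man1a and Spon1 and low for Tle3.

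The vectors were compared within the heterozygous line, where the choice of the genes used the Het empty libraries but no difference between vectors. None of the 9 genes changed in any of the 6 comparisons in edgeR (adjusted p of 0.647 or more). The percentage of all 14548 genes called was 0 for Het DDX41 against Het empty, 0 for Het G173R against Het empty, 0.0137 for Het R525H against Het empty, 0 for Het G173R against Het DDX41, 0 for Het R525H against Het DDX41 and 0.0825 for Het G173R against Het R525H. DESeq2 called none of the 9 either. A test of any difference among the 4 groups called none (0.0137 percent of all genes), with Fgl2 lowest at an unadjusted p of 0.0558 (adjusted p = 1).

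Fgl2 was the gene with the smallest p in these comparisons. It was 11.5, 12.5 and 10.3 CPM in libraries 1 to 3 of Het empty, 10.5, 10.6 and 9.43 in Het DDX41, 11.2, 9.84 and 9.31 in Het G173R, and 14, 13.2 and 11.3 in Het R525H. All 3 libraries of Het R525H lay above all 3 of Het DDX41 and of Het G173R, as libraries did without overlap for 10.7 and 11.1 percent of all genes in those comparisons. The log2 difference was 0.34 from Het DDX41 (95 percent interval 0.06 to 0.62, unadjusted p = 0.0213, edgeR adjusted p = 1). That of Het G173R from Het R525H was -0.35 (-0.63 to -0.07, unadjusted p = 0.0193, edgeR adjusted p = 0.647). With the library number as a block none of the 9 genes was called in any of the 6 comparisons, where 0, 0, 0.433, 0.00687, 0.406 and 0.969 percent of all genes were, in the order above, nor in the test over the 4 groups (0.522 percent). The smallest edgeR adjusted p of the 9 with the block was 0.122, for Het G173R against Het R525H.

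Zfp462 was 26, 21.2 and 24.7 CPM in Het empty and 19.6, 19.8 and 21.3 in Het DDX41. It was 24.3, 19.7 and 23.8 CPM in Het G173R and 21.6, 19.4 and 22.8 in Het R525H. Het DDX41 was the lowest group and overlapped Het empty in 1 pair of libraries, 21.3 against 21.2. The log2 difference was -0.25 (interval -0.49 to 0, unadjusted p = 0.0514, edgeR adjusted p = 1). With the library number as a block it was -0.24 (-0.42 to -0.06, unadjusted p = 0.0116, edgeR adjusted p = 0.82) and was not called.

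Pja1 had the narrowest spread of the 9. It was 30.2, 30.2 and 26.2 CPM in Het empty, 30.1, 31.8 and 24.5 in Het DDX41, 29.3, 31.9 and 24.6 in Het G173R and 29.1, 31.1 and 28.5 in Het R525H. Its coefficient of variation over the 12 libraries was 8.91 percent, against a median of 14.1 percent over all genes tested, and its log2 difference from Het empty lay between -0.28 and 0.30 (95 percent intervals) for each DDX41 vector. Cln8 was 6.05, 6.57 and 5.27 CPM in Het empty, 6.56, 6.08 and 6.39 in Het DDX41, 6.03, 6.67 and 6.53 in Het G173R and 4.81, 7.39 and 6.85 in Het R525H. No group of Cln8 stood apart, and the intervals of its differences from Het empty ran from -0.32 to 0.52.

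For Man1a and Tle3 the intervals were far wider in this fit, which has no term for the library number. The log2 difference of Man1a from Het empty was 0.17 in Het DDX41 (-0.87 to 1.20), 0.20 in Het G173R (-0.84 to 1.24) and 0.08 in Het R525H (-0.96 to 1.12). Tle3 had differences of -0.15 (-0.84 to 0.54), 0.02 (-0.68 to 0.71) and 0.26 (-0.43 to 0.95). The spread behind these intervals lay between libraries of the same group, as the plot of levels by library shows. With the library number as a block the intervals narrowed. Man1a had log2 differences from Het empty of 0.13 (-0.10 to 0.36), 0.15 (-0.09 to 0.38) and 0.08 (-0.16 to 0.31) with the vectors in the same order. Those of Tle3 were -0.16 (-0.38 to 0.06), 0 (-0.22 to 0.22) and 0.22 (0 to 0.44, unadjusted p = 0.0467, edgeR adjusted p = 0.43). Tle3 in Het R525H against Het DDX41 had the smallest unadjusted p of the 9 genes with the block, at a log2 difference of 0.38 (0.16 to 0.60, unadjusted p = 0.00223, edgeR adjusted p = 0.143), and did not pass.

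The libraries numbered 3 were therefore compared with those numbered 1 and 2, in a model with the group and the number. In edgeR 7 of the 9 genes changed, 77.8 percent, where 46.1 percent of all genes did. Agap1, Man1a and Spon1 were higher in libraries 3 (21.1 percent of all genes), and Tle3, Pja1, Pdlim1 and Fgl2 were lower (25 percent of all genes). The labels do not say what the number marks. The largest differences among the 9 were those of Man1a (Golgi) and Spon1 (matrix) upward and of the corepressor gene Tle3 downward. The median size of the log2 difference was 0.30 for the 9 genes and 0.21 for all genes tested.

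**Figure D3:**
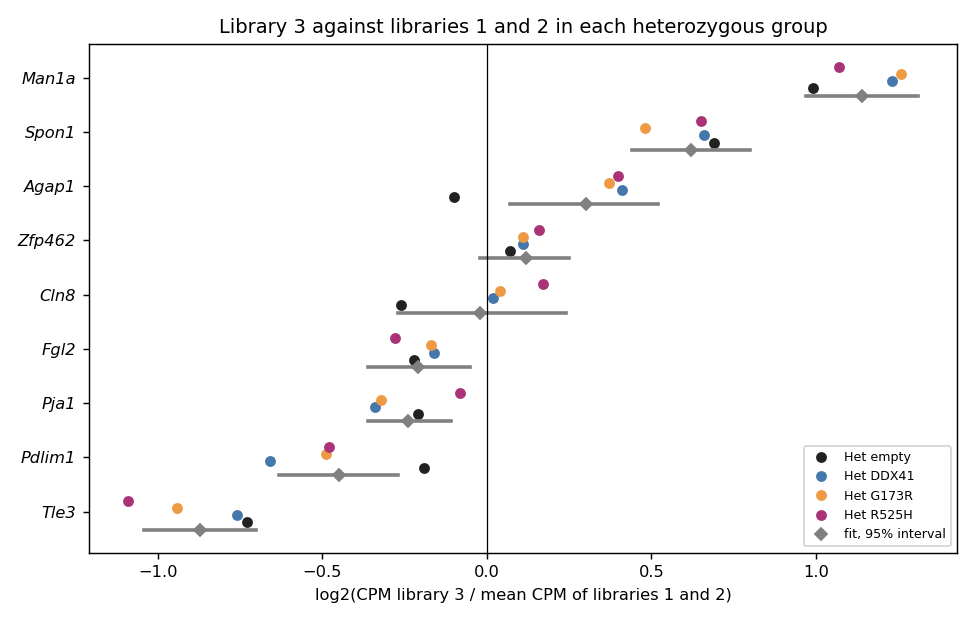
The log2 ratio of CPM in library 3 to the mean of libraries 1 and 2, for each gene in each of the 4 heterozygous groups (coloured points), with the fitted difference and its 95 percent interval (grey). All 4 groups lie to the right of 0 for Man1a, Spon1 and Zfp462 and to the left for Tle3, Pdlim1, Pja1 and Fgl2, and the groups fall on both sides for Agap1 and Cln8.

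Man1a was 7.65, 7.9 and 15.4 CPM in libraries 1 to 3 of Het empty, 8.21, 7.79 and 18.8 in Het DDX41, 8.57, 7.52 and 19.3 in Het G173R, and 7.64, 8.41 and 16.9 in Het R525H. Each library 3 lay above all 8 libraries numbered 1 and 2. The log2 difference was 1.14 (SE 0.08, edgeR adjusted p = 6.06e-07), larger in size than that of 95.5 percent of the genes tested.

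Spon1 was 8.48, 9.23 and 14.3 CPM in Het empty, 8.56, 8.27 and 13.3 in Het DDX41, 7.48, 9.18 and 11.6 in Het G173R, and 8.34, 7.74 and 12.6 in Het R525H. Again no library 3 overlapped the others. Its log2 difference was 0.62 (SE 0.08, edgeR adjusted p = 8.04e-05).

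Tle3 went the other way. It was 11.9, 12.1 and 7.23 CPM in Het empty, 10.8, 10.8 and 6.39 in Het DDX41, 11.5, 13.6 and 6.53 in Het G173R, and 14.5, 15.6 and 7.08 in Het R525H. All 4 libraries numbered 3 lay below the other 8, and the log2 difference was -0.87 (SE 0.08, edgeR adjusted p = 2.34e-06). The ratio of Man1a to Tle3 counts was 0.526 to 0.758 in the 8 libraries numbered 1 or 2 and 2.13 to 2.96 in the 4 numbered 3. Which of these genes had the higher count thus followed the library number in every vector group.

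Pdlim1 was 12, 12.6 and 10.8 CPM in Het empty, 13.2, 14.2 and 8.64 in Het DDX41, 12.8, 13.4 and 9.34 in Het G173R, and 12.4, 12.3 and 8.9 in Het R525H. Its log2 difference in libraries 3 was -0.45 (edgeR adjusted p = 0.000891). That of Pja1 was -0.24 (edgeR adjusted p = 0.00491, and 0.0833 without Het DDX41 library 3). For Man1a, Spon1, Tle3, Pdlim1 and Pja1 the libraries 3 did not overlap the rest, 5 of 9 genes where 23.9 percent of all genes did so.

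Agap1 and Fgl2 were called with less margin. Agap1 was 24.4, 22.6 and 22 CPM in Het empty, 22.4, 22.3 and 29.7 in Het DDX41, 24.4, 21.5 and 29.8 in Het G173R, and 21.6, 20 and 27.4 in Het R525H. Library 3 was the highest in the 3 groups with a DDX41 vector and the lowest in Het empty, a contrast between groups that was not tested. The overall difference was 0.30 (edgeR adjusted p = 0.0315), and that of Fgl2 -0.21 (edgeR adjusted p = 0.0363). Agap1 lost its call without any 1 of the 3 Het DDX41 libraries, the 3 Het R525H libraries or Het G173R library 1 or 3 (adjusted p = 0.0509 to 0.109), and Fgl2 without any of those 8 or Het empty library 2 or 3. Without Het DDX41 library 3, 4 of the 9 genes were called in place of 7, and the share of all genes called in that fit is not given here.

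Across the 12 heterozygous libraries some of the genes varied together and others against each other. Man1a and Spon1 had a Pearson r of 0.89 (log2 CPM), Tle3 and Pja1 of 0.85, and Tle3 and Pdlim1 of 0.84. Man1a had r of -0.94 with both Tle3 and Pdlim1, and of -0.90 with Pja1. Cln8 had r between -0.39 and 0.18 with every other gene, and Zfp462 between -0.46 and 0.43. The points share their depth and library number, and the coefficients are descriptions. The 9 genes did not share 1 pattern of variation in the heterozygous line.

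The effective length, the average length that RSEM gives a gene from the transcripts it assigns reads to, was a further readout that the choice did not use. Fgl2, with 1 transcript, and Spon1, with 2, kept theirs within 3521 to 3547 and 5830 to 5904 bases. Zfp462, with 4 annotated transcripts, had 5100, 5704, 8180 and 7978 bases in library 3 of Het empty, Het DDX41, Het G173R and Het R525H. Its 8 libraries numbered 1 and 2 had 8235 to 10219 bases, so that every library 3 was shorter than all others. It was picked as the 1 of the 9 with this separation, which 0.55 percent of all genes tested showed in this direction and 0.392 percent in the other. Its CPM differed little between the same libraries (log2 difference 0.12, edgeR adjusted p = 0.142). Its TPM, which divides by this length, was 4.03, 3.22, 2.66 and 2.46 in library 3 of the same groups in that order. In libraries 1 and 2 it lay between 1.52 and 2.78, a range that includes library 3 of Het G173R and Het R525H.

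**Figure D4:**
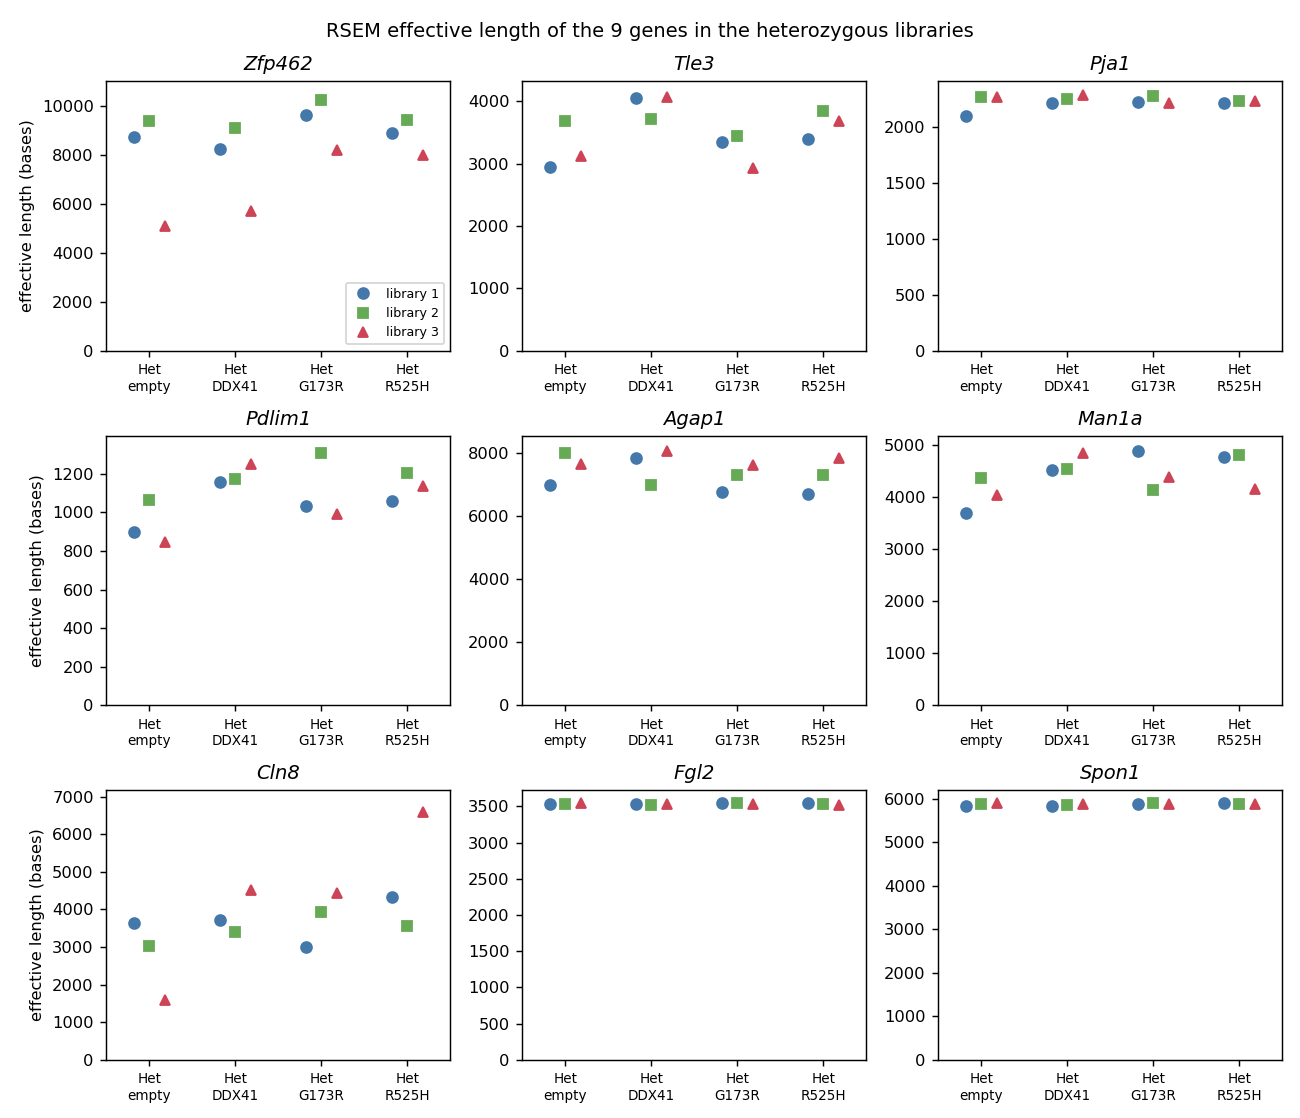
RSEM effective length in bases for the 9 genes in the 12 heterozygous libraries, by group, with the library number as symbol and colour. Zfp462 is shortest in library 3 of all 4 groups, Cln8 runs from 1589 to 6590 bases, and Fgl2 and Spon1 are flat.

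Cln8 had 5 transcripts and an effective length from 1589 bases in Het empty library 3 to 6590 bases in Het R525H library 3. The same 2 libraries gave its highest and lowest TPM, 2.75 and 0.89, from 5.27 and 6.85 CPM. The TPM of Cln8 and Zfp462 therefore moved with the assignment of reads to transcripts as well as with their number. For Pdlim1 the expected counts were not whole in any of the 12 libraries, so part of its reads also matched another gene. Man1a overlaps an exon of 1 other gene in GENCODE M21, Gm16998 on the opposite strand, which held 21 counts over the 12 heterozygous libraries.

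The 9 genes lie on 9 different chromosomes, 1, 4, 5, 7, 8, 9, 10, 19 and X. To see whether silence extended beyond each gene, the 2 nearest tested genes on each side were read in RefSeq order (GRCm38.p6), 36 in all. Between a gene and its neighbour lay 0 to 35 other annotated genes, and "beside" means only being among these 36. Of these, 35 had counts in WT empty. All 36 had passed the filter on low counts, and the share of all tested genes with counts in WT empty was not computed. The annotated genes in between were not read, so where silence ends beside each gene was not tested. Among the 31 neighbours at 1 CPM or more in either group, the log2 difference of Het empty from WT empty lay between -0.89 and 0.55. On the X chromosome, Yipf6 and Igbp1 beside Pja1 were 31.8 ± 1.51 and 70.2 ± 3.62 CPM (SD, n = 3) in WT empty and 29.7 ± 1.35 and 65.5 ± 7.13 in Het empty. The remaining neighbours of Pja1 were low in both groups and not called. Awat2, nearer than Igbp1, was 0.433 CPM in WT empty and 0.498 in Het empty, and Eda2r 0.451 and 0.134 CPM. Far1 and Copb1 beside Spon1 were 147 ± 5.52 and 153 ± 8.93 CPM in WT empty and 151 ± 7.33 and 161 ± 4.2 in Het empty. Of the most abundant neighbours, Rplp1 beside Tle3, a ribosomal stalk protein gene, was 606 ± 8.27 against 727 ± 141 CPM. Rad23b beside Zfp462, a DNA repair gene, was 321 ± 15.7 against 329 ± 12.2 CPM.

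**Figure D5:**
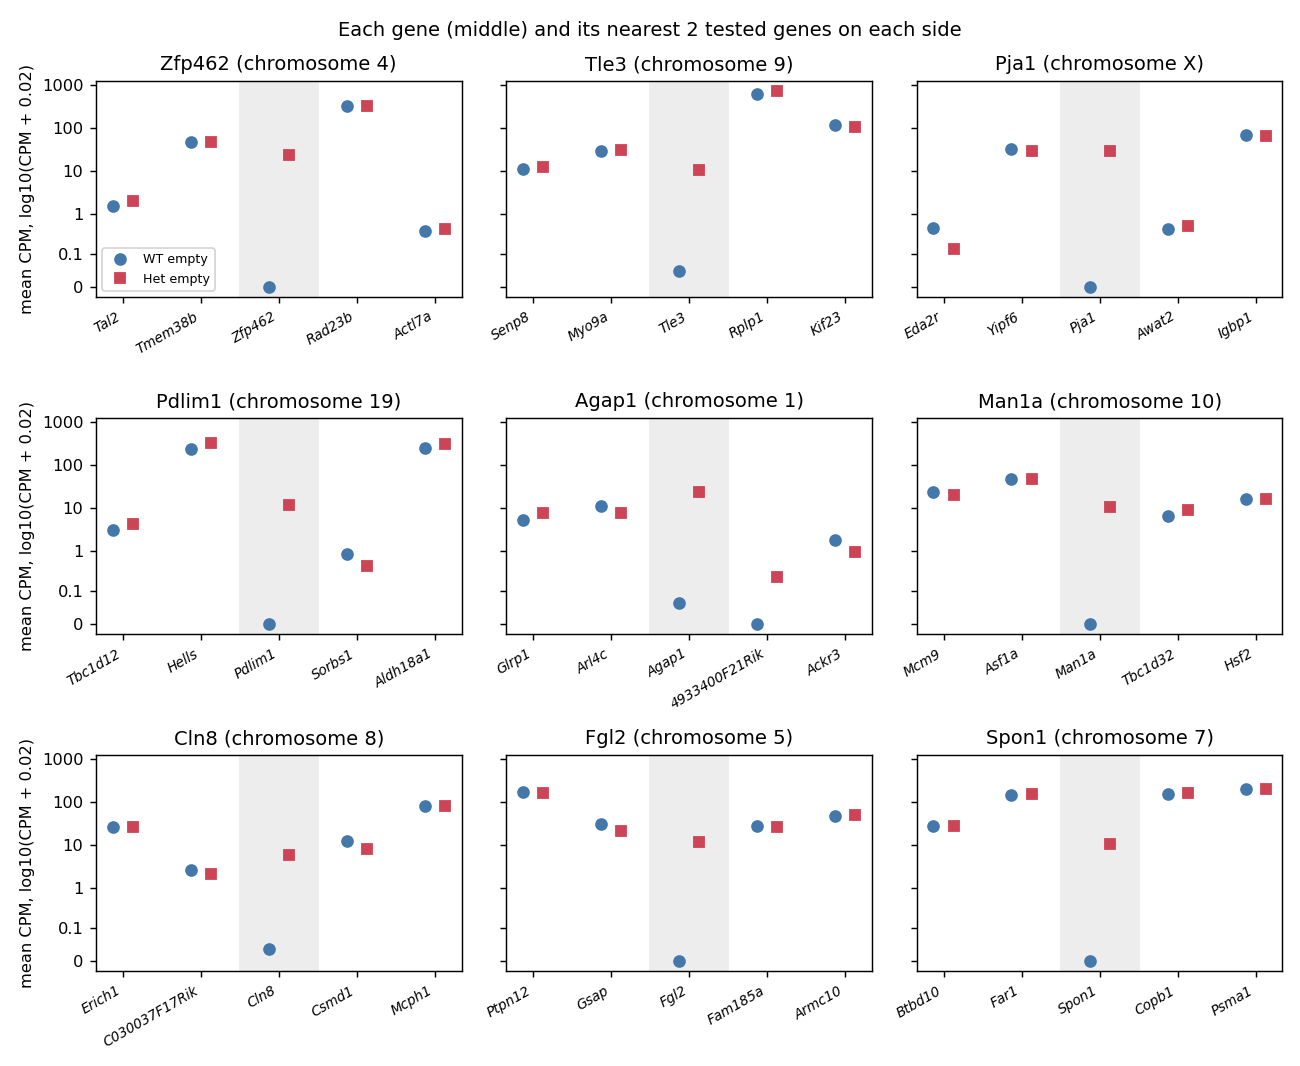
Mean CPM in WT empty (circles) and Het empty (squares) of each of the 9 genes (grey band) and its nearest 2 tested genes on each side, in chromosome order, on the scale log10(CPM + 0.02). The 9 genes fall to or near 0 in WT empty, while 35 of their 36 neighbours have counts in both lines, and 4933400F21Rik beside Agap1 has none in WT empty. Genes that did not pass the filter on low counts are not shown.

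The neighbour without counts in WT empty was 4933400F21Rik, the first tested gene after Agap1, at 0.0577 to 0.397 CPM over the 12 heterozygous libraries. It was called higher in Het empty (edgeR adjusted p = 0.032). Without a count in WT empty it passed the filter only through heterozygous libraries. The direction of its call was therefore fixed beforehand, and nothing is drawn from it. Arl4c, on the other side of Agap1, and Gsap, beside Fgl2, were lower, at 7.63 ± 1.4 against 11.1 ± 0.364 CPM (log2 -0.54, edgeR adjusted p = 0.0414) and 20.7 ± 2.04 against 30.1 ± 2.27 CPM (log2 -0.54, adjusted p = 0.0498). The 3 called, 4933400F21Rik included, are 8.33 percent of the neighbours, where 3.66 percent of all genes were called, 1.9 percent higher and 1.75 percent lower. Since this share counts 4933400F21Rik, no excess of calls beside the 9 genes is read from it. With the library number as a block 8 neighbours changed, 6 higher and 2 lower (22.2 percent, against 9.29 percent of all genes). Hells, Tbc1d12 and Aldh18a1 beside Pdlim1 were among those higher, as was 4933400F21Rik again, so the share with the block counts it too. Hells, a chromatin remodelling helicase gene, was 317 ± 23 against 229 ± 20.2 CPM (edgeR adjusted p = 0.0962, and 0.000283 with the block). All 3 calls lay near the threshold. Gsap lost its call in each fit without 1 library other than Het G173R library 3. Arl4c kept it only without Het empty library 2 or Het G173R library 1 or 3, and 4933400F21Rik lost it without any WT empty library, Het empty library 1 or 3 or Het DDX41 library 2. The log2 differences moved little in these fits, from -0.62 to -0.49 for Gsap and -0.69 to -0.44 for Arl4c. With the block the edgeR adjusted p was 0.000345 for Gsap, 0.0118 for Arl4c and 0.00899 for 4933400F21Rik.

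Pja1 is X-linked, so the sex-linked genes were read beside it. Ddx3y was 98.9 to 115 CPM in WT empty and 93.1 to 120 CPM in the heterozygous libraries, and Kdm5d 60.4 to 67.1 and 51.4 to 67.8 CPM. Xist had at most 1 count in any library. Both lines thus showed the same Y-linked transcripts and no Xist.

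Close relatives of 7 of the 9 genes were expressed in both lines, and those listed for Fgl2 and Spon1 were nearly absent from both. Of 28 listed family members 27 were found and 20 tested. The other 7 were Pdlim3, Pdlim4, the Fgl2 relatives Fgl1, Fga, Fgb and Fgg, all with no count in WT empty and Het empty, and the Spon1 relative Spon2 at 0.171 ± 0.0339 CPM in WT empty and 0.0288 ± 0.0499 in Het empty. In Het empty against WT empty 1 was lower and none higher (edgeR, 3.66 percent of all genes called). Their median log2 difference was 0, as over all genes tested. Man1a2, a second Golgi mannosidase of the same class, was 159 ± 13.2 CPM in WT empty and 156 ± 8.63 in Het empty (SD, n = 3). The Tle3 relatives Tle4 and Tle5 were 119 ± 2.31 and 125 ± 7.64 CPM in WT empty and 118 ± 4.47 and 128 ± 10.2 in Het empty. Among relatives named after their values were seen, Pja2, a ubiquitin ligase like Pja1, was 64.5 ± 1.73 against 64.8 ± 1.55 CPM. Agap2 was 56.2 ± 9.08 against 57.3 ± 3.85 CPM, and Pdlim5, with the domains of Pdlim1, 49.4 ± 8.82 against 51.8 ± 15.5 CPM.

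Cln3, a lysosomal membrane protein gene that shares with Cln8 a link to neuronal ceroid lipofuscinosis, was the relative that changed. It was 17.9 ± 1.03 CPM in Het empty and 24.8 ± 4.31 in WT empty, a log2 difference of -0.47 with an SE of 0.12 (edgeR adjusted p = 0.0399). It kept its call without WT empty library 3, Het DDX41 library 3 or Het G173R library 1 or 3 and lost it without any of the other 11. Its log2 difference was -0.31 without WT empty library 1 and otherwise between -0.55 and -0.43 in these fits. With the block 2 of the 20 relatives changed, Cln3 (adjusted p = 0.00914) and Tle6 (log2 0.43, adjusted p = 0.0377), where 9.29 percent of all genes did.

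Genes that act with the 9 were read in the same comparison. Of 50 partners 43 were tested, 2 were higher in Het empty and none lower, where 3.66 percent of all genes were called, a share near that of the partners, with a median log2 difference of 0.02 against 0 over all genes. Actn1, which encodes an alpha-actinin bound by Pdlim1, was 57.5 ± 1.64 against 38.7 ± 3.9 CPM (log2 0.57, SE 0.09, edgeR adjusted p = 0.0012). Tcf7l2, a Wnt pathway transcription factor that binds Tle corepressors, was 1.68 ± 0.239 against 0.435 ± 0.0119 CPM (log2 1.94, SE 0.32, edgeR adjusted p = 0.00259). Both kept their calls and directions in each of the 15 fits without 1 library.

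None of the other tested partners passed in this fit. With the block Ap3s1, which encodes a subunit of the AP-3 coat, also changed, at 203 ± 8.13 against 182 ± 0.966 CPM (log2 0.16, edgeR adjusted p = 0.0469, and 0.153 without the block). Cbx5, a heterochromatin protein gene listed with Zfp462, was 816 ± 46.5 against 810 ± 35.3 CPM. Ganab, a glucosidase that acts before Man1a on N-glycans, was 537 ± 30.8 against 524 ± 40.8 CPM, and Ctsd, a lysosomal protease listed with Cln8, 452 ± 27.3 against 459 ± 70.7 CPM. App, a binding partner of Spon1, and Maged1, one of Pja1, were not tested and had no count in WT empty or Het empty, while the Spon1 receptor gene Lrp8 was 66.2 ± 3.26 against 65.3 ± 4.77 CPM.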

How the data were processed

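The 15 RNA libraries were made with a stranded kit for total RNA that depletes rRNA, per the labels' protocols. The authors deposited RSEM gene tables. Per the file headers, these hold expected counts, estimates in which a read matching several genes is shared out, and TPM. The RSEM version, aligner and build, and whether counting used strand, are not given here. The deposited effective length column, in bases, was read as a description.

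Expected counts were rounded for edgeR 4.0.16 (R 4.3.3). After filterByExpr (14548 genes) and TMM scaling, a quasi-likelihood fit on group used all 15 libraries, with Benjamini-Hochberg adjustment over all genes tested and a threshold of 0.05. Libraries 3 were compared with 1 and 2 in a model with group and number. DESeq2 1.42.0 was an alternative. CPM uses TMM-scaled totals. Folds against 0 use a floor of 3 counts over the group. Correlations use log2(CPM + 0.5). The fitting code was tested on simulated data.

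The 9 genes and the lists were chosen with earlier results of these data known. Named besides the 9 were called relatives, partners and neighbours, up to 3 further of each list by CPM, and the 5 most alike genes, of which 1 is not reported here; Pja2, Agap2, Pdlim5, Yipf6, Igbp1, Far1, Copb1, App, Maged1, Lrp8 and genes just outside the limits were chosen after their values were seen. RefSeq and GENCODE M21 (GRCm38) gave order, promoters and overlaps, with 88.6 percent of tested genes matched to RefSeq, and no coordinates of the files were used.

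Same-numbered libraries were paired by their deviations from the group means: all 3 correlations exceeded 0.1 (0.483 to 0.571) for Het empty against WT empty and for each comparison of vectors except Het DDX41 against Het empty (lowest 0.087), so fits with the number as a block are given where they change a call.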

Additional observations from a re-analysis of the deposited data

How the results depend on the processing

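None of the 9 genes was called in a comparison of vectors under any of the alternatives run: DESeq2 size factors, no filter on low counts, DESeq2, the replicate block, libraries 1 and 2 only, the 12 heterozygous libraries only and the fits without 1 library. Libraries 3 against libraries 1 and 2 gave 4 to 7 called genes without 1 library, and 6 with DESeq2, an alternative chosen after seeing the data. The share of all genes called in those fits is not given here, so these counts do not compare the 9 with other genes. In Het empty against WT empty the count of called relatives was 0 with no filter, 2 with the replicate block and 0 to 1 without 1 library. Called neighbours numbered 3 of 36 in the main fit, 5 with DESeq2, 8 with the replicate block and 0 to 4 without 1 library. With the 5 nearest on each side they numbered 5 of 90. Called partners numbered 4 in libraries 1 and 2 only. Apart from the block, the share of all genes called in these alternatives is not given here. With the block called partners numbered 3, and the share of all genes called in Het empty against WT empty rose from 3.66 to 9.29 percent. Arl4c also lost its call with no filter and in libraries 1 and 2 only, Gsap with DESeq2 size factors, and Cln3 with no filter. Fgl2 lost its call in libraries 3 with no filter and with DESeq2 (DESeq2 adjusted p = 0.0603). None of the 13 genes refitted under the alternatives (the 7 called in libraries 3, Arl4c, Gsap, 4933400F21Rik, Cln3, Actn1 and Tcf7l2) turned direction. The whole-table count of 7 silent genes became 11 at a limit of 1 CPM and 2 at 10 CPM. Where a cause is not given by the construction of the alternative, the cause was not tested. In WT empty the depth limits silence to 0.0272 CPM.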
